A study of Homo sapiens with 6 samples.

Results

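The histone genes of T24 cells were described across 6 RNA sequencing libraries, with the genes of replication-dependent histones set beside those of histone variants. Members were all genes of the count table whose symbol begins with HIST1H, HIST2H, HIST3H, HIST4H, H2AF, H1F or H3F, after 30 pseudogene names and 1 antisense name were left out. This gave 91 of 54261 genes, of which 75 were replication-dependent (the HIST symbols) and 16 were variants (the H2AF, H1F and H3F symbols). T24 is an established human bladder cancer cell line. The T24-shRNA2 group held 3 libraries from cells whose lentivirus encoded a hairpin RNA directed at MTHFD2, the mitochondrial folate enzyme, and the T24-NC group held 3 libraries of cells infected with the NC vector, which is listed without a hairpin. Both vectors carried the green fluorescent protein ZsGreen and a puromycin resistance gene, and both sets of cells were selected with puromycin and grown in high-glucose DMEM with serum. The knockdown rests on a single hairpin, the one the titles number 2, and the labels do not say whether the selected cells were a pool or a clone. The replicate numbers are not said to be separate cultures, so each p-value reflects only how these samples vary, and that variation may be technical.

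Histones package DNA into nucleosomes, a core of H2A, H2B, H3 and H4 with an H1 linker on top. Replication-dependent genes lie in clusters, lack introns in most cases and are switched on in S phase, when new chromatin is built, and their mRNAs end in a short stem-loop in place of a poly(A) tail. Some of them also make polyadenylated transcripts. Variant genes lie alone, are mostly spliced and polyadenylated, and are used throughout the cell cycle to place special histones at breaks, promoters or silent chromatin.

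The libraries held 18452506 to 19896302 counts in T24-shRNA2 and 17801990 to 19978392 in T24-NC, and levels are given as CPM, the counts per 1000000 counts, on library sizes scaled by edgeR's TMM method. A library count of 0 allows up to 3 counts, or 0.149 to 0.171 CPM, and this covers counting error only. The targeted gene, MTHFD2, had 538, 667 and 686 counts in T24-shRNA2 against 3241, 3613 and 3417 in T24-NC (log2 fold change -2.51 ± 0.13, SE; edgeR adjusted p = 1.8e-06). Of 15 urothelial markers, KRT8 (343 ± 51.7 CPM in T24-shRNA2 and 825 ± 68.5 CPM in T24-NC; SD, n = 3 each), KRT18, KRT7 and PPARG were the most abundant. Of the 7 tested, 2 were higher in T24-shRNA2, FOXA1 (8.55 ± 0.90 CPM in T24-shRNA2 and 5.92 ± 0.78 CPM in T24-NC) and UPK1A (1.38 ± 0.53 CPM in T24-shRNA2 and 0.412 ± 0.07 CPM in T24-NC), and 2 were lower, KRT8 and KRT18. The urothelial UPK3A and KRT20 were at 0 in every library, and GATA3, UPK2, KRT5 and TP63 had at most 6 counts in any library. The urothelial sum was 1330, 1011 and 1198 CPM in T24-shRNA2 against 2125, 2115 and 2523 CPM in T24-NC. Over all tested genes 9.71% were higher and 7.58% lower, shares that stand beside the marker counts given here. Of 14 fibroblast markers, 7 were tested, with a median log2 fold change of 2.10, and 5 were higher in T24-shRNA2. Among them, collagen COL1A1 was at 18.1 and 13.98 CPM in T24-shRNA2 replicates 1 and 3 and at 4.84 CPM in replicate 2, against 3.19, 3.64 and 3.56 CPM in T24-NC. This collagen was thus higher in replicates 1 and 3 than in replicate 2, so log2 fold changes of replicate 2 alone over the 3 T24-NC libraries are given beside the results they bear on, as values with no call. Over all genes replicates 1 and 2 were the closest T24-shRNA2 pair and replicates 2 and 3 the farthest apart. The sum over all 14 fibroblast markers was 166, 120 and 150 CPM in T24-shRNA2 and 140, 138 and 157 CPM in T24-NC, most of it FBLN1 (111 ± 5.99 CPM in T24-shRNA2 and 137 ± 10.6 CPM in T24-NC). The other marker sums were 1.69 to 2.57 CPM in T24-shRNA2 and 2.39 to 3.33 CPM in T24-NC for 14 leukocyte genes, 16.6 to 21.7 CPM in T24-shRNA2 and 17.7 to 21.5 CPM in T24-NC for 10 endothelial genes, and 0.655 to 1.02 CPM in T24-shRNA2 and 0.364 to 0.637 CPM in T24-NC for 10 hepatocyte genes. The 11 embryonic kidney or neural genes summed to 254 to 325 CPM in T24-shRNA2 and 344 to 410 CPM in T24-NC.

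The stem-loop was searched as GGNNCTT followed at once by NTNAGNNCC, with N any base, on the sense strand only, in the annotated GENCODE 29 transcripts of each gene. It occurred in 185 of 58676 genes, or 0.315%, in 35 of the 75 replication-dependent genes and in 1 of the 16 variant genes, H2AFX. Many replication-dependent genes without a match had 1 short annotated transcript, such as 312 bases in HIST1H4A, 393 in HIST1H2AB and 411 in HIST1H3A. A loop beyond the annotated end could not be found, so a missing match does not show that a gene lacks the loop. The commonest form, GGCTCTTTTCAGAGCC, was shared by 18 replication-dependent genes. The 7 stem-loops printed here belong to HIST1H3G and H2AFX, which were lower in T24-shRNA2, and to the better expressed genes whose annotated transcript runs on past the loop. The capitals mark the motif, 5′ to 3′, with 5 bases on each side.
HIST1H3G: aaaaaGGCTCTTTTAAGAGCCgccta
H2AFX: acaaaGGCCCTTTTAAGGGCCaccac
HIST1H2AC: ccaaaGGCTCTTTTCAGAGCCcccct
HIST1H2BC: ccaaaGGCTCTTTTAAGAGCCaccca
HIST1H2BD: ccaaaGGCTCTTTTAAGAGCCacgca
HIST2H2BE: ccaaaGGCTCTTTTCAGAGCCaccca
HIST3H2A: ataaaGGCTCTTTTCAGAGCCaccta
The transcript ends 1044 bases after the loop in H2AFX, 1518 in HIST1H3G, 1729 in HIST2H2BE, 1128 in HIST1H2AC, 390 in HIST3H2A, 116 in HIST1H2BC and 39 in HIST1H2BD. A match is a description of the annotated sequence and does not show which end the sequenced RNA had. No match was found in the annotated transcripts of HIST1H2BJ and HIST1H2BK, and the one annotated for HIST1H2BK is only 381 bases long.

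Promoter windows of 300 bases around the transcription start, mostly upstream of it, are shown for HIST1H2BJ and HIST1H2BK, the neighbouring H2B genes that fell together, and for H2AFX, whose fall was close to that of HIST1H2BK. They come from RefSeq on GRCh38.p14 and are read along the minus strand, at chr6:27132746-27133045, chr6:27146809-27147108 and chr11:119095416-119095715 in that order. The HIST1H2BJ window reaches the start of the plus-strand H2A gene HIST1H2AG at 27133042. The HIST1H2BK window ends just before the plus-strand H2A gene HIST1H2AH at 27147129. HIST1H2AG was not called (log2 fold change -0.13) and HIST1H2AH was not tested, so the windows do not belong to the H2B genes alone. Capitals mark the CCAAT box, the TATA box written as TATAAA and the octamer ATTTGCAT, each in either orientation. TATAAA and its reverse complement TTTATA overlap where they stand in TTTATAAA.
HIST1H2BJ: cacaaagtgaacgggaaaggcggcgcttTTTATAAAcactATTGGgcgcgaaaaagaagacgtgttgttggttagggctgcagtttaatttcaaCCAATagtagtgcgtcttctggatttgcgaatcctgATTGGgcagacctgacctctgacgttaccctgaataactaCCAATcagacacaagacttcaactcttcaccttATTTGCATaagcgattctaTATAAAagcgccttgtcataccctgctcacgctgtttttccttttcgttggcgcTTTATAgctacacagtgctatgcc
HIST1H2BK: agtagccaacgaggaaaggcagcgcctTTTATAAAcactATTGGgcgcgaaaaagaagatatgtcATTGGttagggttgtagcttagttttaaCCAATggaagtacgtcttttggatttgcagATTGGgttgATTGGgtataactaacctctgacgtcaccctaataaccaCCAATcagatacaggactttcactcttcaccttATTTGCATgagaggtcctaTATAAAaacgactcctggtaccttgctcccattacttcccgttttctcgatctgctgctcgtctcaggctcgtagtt
H2AFX: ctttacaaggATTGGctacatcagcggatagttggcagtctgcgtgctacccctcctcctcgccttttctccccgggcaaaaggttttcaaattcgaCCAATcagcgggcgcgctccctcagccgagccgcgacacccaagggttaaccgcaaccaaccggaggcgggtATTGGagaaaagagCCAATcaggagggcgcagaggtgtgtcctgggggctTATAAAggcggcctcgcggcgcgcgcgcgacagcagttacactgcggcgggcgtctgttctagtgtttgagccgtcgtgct
The HIST1H2BJ and HIST1H2BK windows were identical at 227 of 308 aligned columns (73.7%), and H2AFX shared 42.2% and 44.6% with them, which is a count over aligned letters and not a test. Each of the H2B windows held the octamer once, and the H2AFX window held none. CCAAT in either orientation was in 39.7% of the windows of 27305 genes, in 51 of 61 replication-dependent genes with a window, in all 18 of the replication-dependent H2B genes among them and in 12 of 14 variant genes. TATAAA was in 13.99% of all windows, in 41 of the 61 replication-dependent genes and in 4 of the 14 variants. The octamer was in 2.19% of all windows, in 26 of the 61, in 14 of the 18 H2B genes and in 1 of the 14 variants.

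Summed CPM was low for replication-dependent genes and high for variant genes in both groups. The replication-dependent sum was lower in every T24-shRNA2 library than in any T24-NC library. Summed over 75 genes it was 103.5, 85.6 and 98.5 CPM in T24-shRNA2 against 117.3, 115.5 and 129.96 CPM in T24-NC, with means of 95.9 ± 9.22 and 121 ± 7.89 CPM (SD, n = 3 each). The log2 ratio of the means was -0.33, and without the most abundant member, HIST1H2BK, it was -0.15. HIST1H2BK also carried the separation, since without it the sums were 64.2, 57.6 and 62.7 CPM in T24-shRNA2 against 68.6, 63.6 and 73.2 CPM in T24-NC, and the groups overlapped. The variant sum over 16 genes was 2170, 1938 and 2447 CPM in T24-shRNA2 and 2344, 2294 and 2629 CPM in T24-NC, so these groups overlapped, with a log2 ratio of -0.15. The ratio of variant to replication-dependent summed CPM was 20.97, 22.62 and 24.84 in T24-shRNA2 and 19.98, 19.86 and 20.23 in T24-NC. CPM is not corrected for gene length, and the labels do not say whether poly(A) RNA was selected. The ratio is therefore not one of RNA molecules in the cells. In bulk libraries, fewer cells in S phase and less histone RNA per cell cannot be told apart. No cause of the lower sum, whose separation HIST1H2BK carried, was tested.

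**Figure D1:**
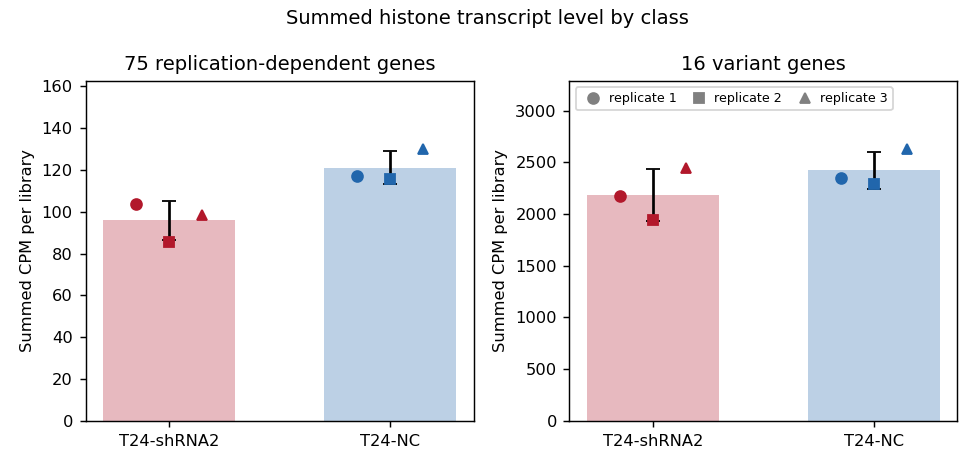
Summed CPM of the 75 replication-dependent genes (left panel) and the 16 variant genes (right panel) in T24-shRNA2 and T24-NC. Bars are means, error bars are SD over 3 libraries and points are libraries. The replication-dependent points of T24-shRNA2, at 85.6 to 103.5 CPM, lie below those of T24-NC, at 115.5 to 129.96 CPM, while the variant points overlap.

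A gene was tested where edgeR's filterByExpr kept it, and called where the Benjamini-Hochberg adjusted p of edgeR's quasi-likelihood test over 13896 tested genes was under 0.05. Of the 91 histone genes, 27 were tested, 16 replication-dependent and 11 variant, and 6 were called. Over all tested genes 17.3% were called, 9.71% higher and 7.58% lower in T24-shRNA2. The histone genes as a set were thus called at about the general share with both directions pooled. Most histone calls were lower, while most calls over all genes were higher. Of the 16 tested replication-dependent genes, 0 were higher and 3 were lower, and 5 had an unadjusted p under 0.05; by DESeq2, 0 were higher and 2 were lower. Of the 11 tested variant genes, 1 was higher and 2 were lower. In 5 replication-dependent and 4 variant genes all T24-shRNA2 libraries lay below all T24-NC libraries, which held for 19% of all tested genes. In 0 replication-dependent and 2 variant genes they lay above, which held for 20.1%. The median log2 fold change was -0.14 over the tested replication-dependent genes and -0.17 over the tested variant genes, beside 0.01 over all tested genes. The replication-dependent median moved when single libraries were left out, being -0.39 without T24-shRNA2 replicate 2 and 0.0034 without replicate 3, -0.09 without T24-NC replicate 3, and 0.033 when length and GC content were corrected. The low-count filter was rerun in each fit that left out a library, so the tested genes could differ too. The variant median also moved, to -0.05 without T24-shRNA2 replicate 2, -0.07 without T24-NC replicate 3 and -0.06 with length and GC corrected.

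**Figure D2:**
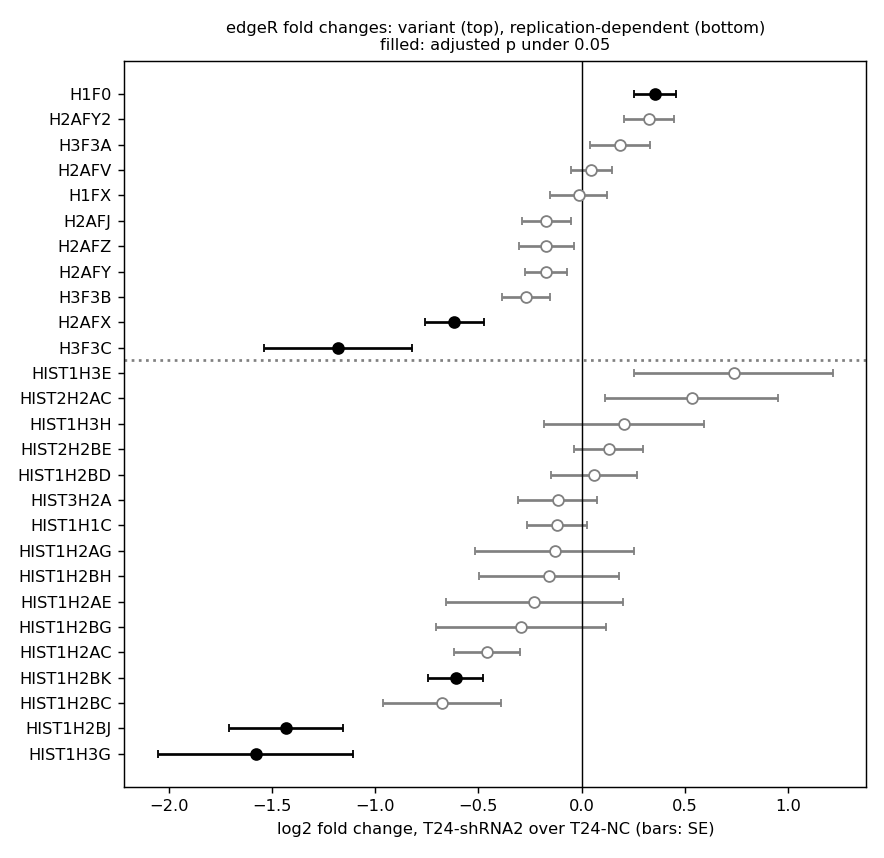
Log2 fold change of T24-shRNA2 over T24-NC for the 27 tested histone genes, with the 11 variant genes above the dotted line and the 16 replication-dependent genes below it. Bars are standard errors and filled points have an adjusted p under 0.05. The called genes are H1F0 to the right of 0 and H3F3C, H2AFX, HIST1H3G, HIST1H2BJ and HIST1H2BK to the left.

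HIST1H2BK encodes a core histone H2B and was the most abundant replication-dependent gene, both in CPM and per kilobase of exon. It lies on the minus strand of GRCh38 chromosome 6 at 27146418 to 27146798, as a single exon in GENCODE. It had 39.3, 28.0 and 35.8 CPM in T24-shRNA2 against 48.7, 51.8 and 56.8 CPM in T24-NC. Every T24-shRNA2 library was below every T24-NC library, and replicate 2 was the lowest. The log2 fold change was -0.61 ± 0.13 (edgeR adjusted p = 0.0109). Its level per kilobase was 90.2 CPM per kb in T24-shRNA2 and 138 CPM per kb in T24-NC. It made up 35.7% of all replication-dependent counts in T24-shRNA2 and 43.4% in T24-NC, on average over 3 libraries each. In T24-shRNA2 replicate 2 alone, the library with the least collagen of its group, the log2 fold change was -0.91, and with length and GC corrected over all libraries it was -0.25 (adjusted p = 0.0456). Of its 50-base windows 74.1% also occur in other genes, 61.4% in the H2B copy H2BFS, which itself had 0 to 3 counts, so part of the reads could belong to a copy.

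HIST1H2BJ, another H2B gene, lies on the same strand of chromosome 6 at 27125897 to 27132750, in the same small group. It had 34, 20 and 22 counts in T24-shRNA2 (1.69, 1.01 and 1.18 CPM) against 74, 55 and 65 counts in T24-NC (4.22, 2.86 and 3.45 CPM). The groups were well apart, with the highest T24-shRNA2 library under the lowest T24-NC library. The log2 fold change was -1.43 ± 0.28 (edgeR adjusted p = 0.0060). In replicate 2 alone it was -1.80. Only 4.6% of its 50-base windows occur elsewhere. HIST1H3G, which encodes histone H3 and lies at 26269405 to 26271815 on the minus strand of chromosome 6, was called from few reads. It had 9, 3 and 6 counts in T24-shRNA2 against 10, 19 and 23 in T24-NC, a log2 fold change of -1.58 ± 0.47 (edgeR adjusted p = 0.0395). Its closest libraries differed by 1 count before scaling, and the call was lost in DESeq2 (adjusted p = 0.0824). In replicate 2 alone the log2 fold change was -2.58.

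The genes on chromosome 6 fell into 3 blocks separated by wide gaps. The first block, at 25726132 to 26285638, held 34 genes, of which 9 were tested and 1 was lower, HIST1H3G. Its summed level was 41.7 ± 3.37 CPM in T24-shRNA2 and 47.3 ± 4.44 CPM in T24-NC. The second, at 27125897 to 27147515, held HIST1H2BJ, HIST1H2AG, HIST1H4I, HIST1H2BK and HIST1H2AH. Of its 3 tested genes 2 were lower, HIST1H2BJ and HIST1H2BK, beside 7.58% of all tested genes. It summed to 42.2, 30.9 and 37.8 CPM in T24-shRNA2 against 54.2, 56.6 and 61.5 CPM in T24-NC, a log2 ratio of -0.64. Between the lower H2B genes of this block lies HIST1H2AG, an H2A gene, at 0.994, 1.26 and 0.536 CPM in T24-shRNA2 and 0.969, 1.35 and 0.744 CPM in T24-NC, where the groups overlapped. The third block, at 27807444 to 27893843, held 16 genes with 1 tested and 0 lower, and summed to 4.22 ± 0.67 CPM in T24-shRNA2 and 3.95 ± 0.57 CPM in T24-NC.

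By family, the replication-dependent H2B genes summed to 59.6, 47.0 and 53.4 CPM in T24-shRNA2 against 69.8, 70.7 and 79.9 CPM in T24-NC. Of 7 tested members 2 were lower, again HIST1H2BJ and HIST1H2BK, beside 7.58% of all tested genes. The H2A genes summed to 15.8, 14.7 and 14.3 CPM in T24-shRNA2 against 17.7, 18.2 and 16.3 CPM in T24-NC, with 0 of 5 tested members called. Both sums were lower in every T24-shRNA2 library. Without HIST1H2BK the H2B sums were 20.3, 19.0 and 17.6 CPM in T24-shRNA2 and 21.1, 18.8 and 23.2 CPM in T24-NC, and overlapped. The linker H1 genes summed to 22.1 ± 2.91 CPM in T24-shRNA2 and 23.9 ± 3.70 CPM in T24-NC, and the H3 genes to 3.26 ± 1.20 CPM in T24-shRNA2 and 3.70 ± 0.04 CPM in T24-NC. The H4 genes summed to 2.28 ± 0.29 CPM in T24-shRNA2 and 2.47 ± 0.68 CPM in T24-NC. These 3 families overlapped between the groups.

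Several well expressed replication-dependent genes did not pass the test. HIST1H1C, which encodes the linker histone H1.2 and ranked next after HIST1H2BK, had 21.2, 18.8 and 24.9 CPM in T24-shRNA2 against 22.5, 20.4 and 27.5 CPM in T24-NC, and the groups overlapped (log2 fold change -0.12 ± 0.15, edgeR adjusted p = 0.603). It took 22.6% of replication-dependent counts in T24-shRNA2 and 19.3% in T24-NC. HIST1H2AC, an H2A gene, had 6.61, 5.49 and 6.05 CPM in T24-shRNA2 against 8.89, 8.73 and 7.33 CPM in T24-NC, without overlap (-0.46 ± 0.16, edgeR adjusted p = 0.0709). HIST1H2BC, an H2B gene, had 1.24, 1.36 and 0.857 CPM in T24-shRNA2 against 1.99, 1.66 and 1.91 CPM in T24-NC, also without overlap (-0.68 ± 0.29, edgeR adjusted p = 0.120). These fold changes were of a size with that of HIST1H2BK, but with wider errors. The H2B gene HIST1H2BD was at 6.31 ± 0.75 CPM in T24-shRNA2 and 6.05 ± 1.62 CPM in T24-NC, and HIST2H2BE, also H2B, at 5.89 ± 0.37 CPM in T24-shRNA2 and 5.38 ± 0.43 CPM in T24-NC. Both overlapped between the groups. HIST3H2A, an H2A gene on chromosome 1, was at 4.94 ± 0.91 CPM in T24-shRNA2 and 5.35 ± 0.39 CPM in T24-NC.

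The remaining tested replication-dependent genes averaged under 2 CPM in both groups. HIST1H3E and HIST2H2AC, which encode H3 and H2A, had the largest positive fold changes of the class, 0.74 ± 0.48 and 0.53 ± 0.42, and their groups overlapped. HIST1H3H, HIST1H2BH, HIST1H2AE, HIST1H2BG and HIST1H2AG lay between -0.29 and 0.21 with standard errors of 0.34 to 0.43, so that small changes could not be seen there. Of the 12 replication-dependent genes listed as also making polyadenylated transcripts, 8 were tested, 0 were higher and 2, again HIST1H2BJ and HIST1H2BK, were lower, with a median of -0.29. Over all tested genes 7.58% were lower.

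**Figure D3:**
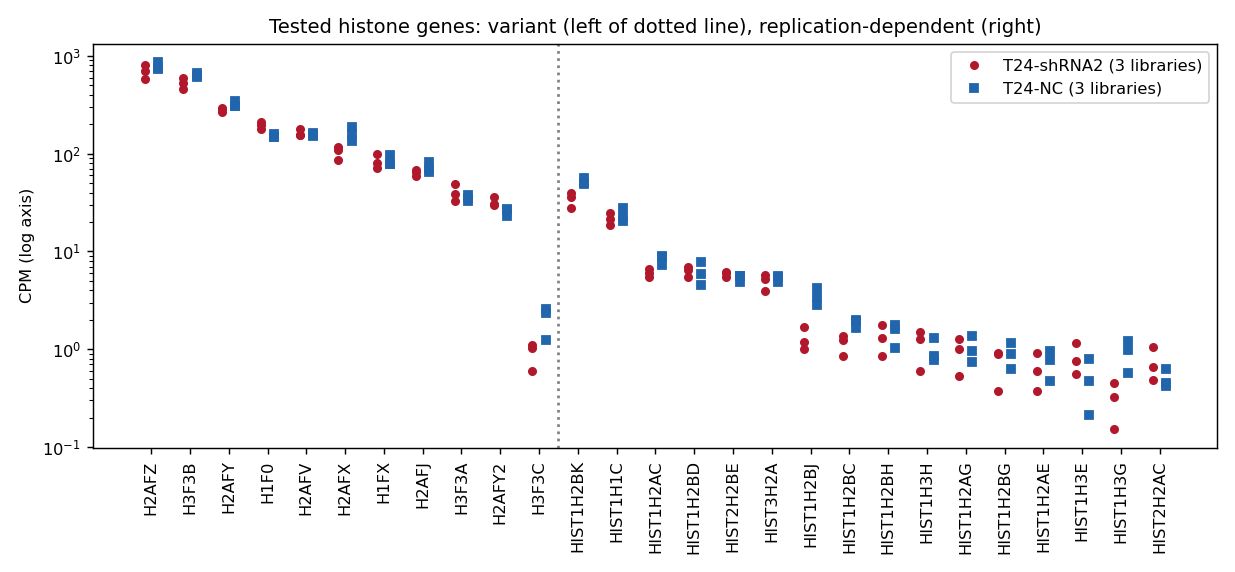
CPM of the 27 tested histone genes on a log axis, T24-shRNA2 libraries left of T24-NC libraries for each gene, variant genes left of the dotted line and replication-dependent genes right of it. H2AFZ leads the variants at 578 to 859 CPM and HIST1H2BK leads the replication-dependent genes at 28.0 to 56.8 CPM, and the colours separate for HIST1H2BJ, HIST1H2BK, HIST1H3G, H2AFX, H3F3C and H1F0, among others.

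The other 59 replication-dependent genes were too low to test. Of these, 16 were at 0 in every library, 12 had at most 3 counts in any library and 31 reached 4 or more, with a highest count of 20. Together they gave 7.81, 8.57 and 6.70 CPM in T24-shRNA2 against 7.30, 7.33 and 7.97 CPM in T24-NC, and the groups overlapped. All 15 H4 genes were among them. HIST1H4H, an H4 gene of the polyadenylated list, had 9, 8 and 9 counts in T24-shRNA2 and 14, 12 and 7 in T24-NC. The paired copies HIST2H3A and HIST2H3C, and HIST2H4A and HIST2H4B, were at 0 in every library, and reads matching both copies of such a pair may not have been counted. The 35 genes with the stem-loop motif were split by the most bases after the loop in any annotated transcript that holds it. The 25 with at least 100 bases after the loop summed to 26.0 ± 2.26 CPM in T24-shRNA2 and 29.5 ± 0.95 CPM in T24-NC, and the 10 with fewer to 8.22 ± 0.23 CPM in T24-shRNA2 and 7.55 ± 1.63 CPM in T24-NC. Most of the latter sum was HIST1H2BD, at 6.31 CPM in T24-shRNA2 and 6.05 CPM in T24-NC. This gene is on the polyadenylated list and also has an annotated transcript without the motif, so the split does not sort genes by transcript end.

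H2AFX, H3F3C and H1F0 were the called variant genes. H2AFX encodes H2A.X, the H2A variant that is phosphorylated around DNA breaks, and it is the only variant member here with the stem-loop printed above. It lies at 119093854 to 119095467 on the minus strand of chromosome 11. It had 118, 85.8 and 110 CPM in T24-shRNA2 against 158, 136 and 187 CPM in T24-NC. The groups did not overlap, with T24-shRNA2 replicate 2 lowest and T24-NC replicate 3 highest. The log2 fold change was -0.62 ± 0.14 (edgeR adjusted p = 0.0142). H2AFX took 8.60%, 7.23% and 7.27% of the summed CPM of H2A genes of both classes in T24-shRNA2, against 10.6%, 9.43% and 11.1% in T24-NC. These shares are not corrected for length. In T24-shRNA2 replicate 2 alone the log2 fold change was -0.91. It was -0.34 with length and GC corrected, and the call was lost without T24-NC replicate 3 (adjusted p = 0.063).

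H3F3C encodes the primate H3 variant H3.5, known from testis, and lies at 31791185 to 31792241 on the minus strand of chromosome 12. It had 22, 12 and 19 counts in T24-shRNA2 against 41, 24 and 49 in T24-NC, and the groups did not overlap after scaling. The log2 fold change was -1.18 ± 0.36 (edgeR adjusted p = 0.0413). It shares 21.8% of its 50-base windows with H3F3B, which was far more abundant, so some of its reads could come from H3F3B. The other 9 genes of a list of 10 germ cell histone genes were at 0 in every library, among them H1FOO of oocytes and H1FNT and the H2AFB genes of testis.

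H1F0 was the histone gene that rose. It encodes H1.0, the linker histone that gathers in non-dividing and differentiated cells, and lies at 37805093 to 37807436 on the plus strand of chromosome 22. It had 177, 198 and 210 CPM in T24-shRNA2 against 149, 150 and 158 CPM in T24-NC, with no overlap. The log2 fold change was 0.36 ± 0.10 (edgeR adjusted p = 0.0315). H1F0 was 63.6%, 68.6% and 62.7% of the summed CPM of all H1 genes in T24-shRNA2 and 59.6%, 60.1% and 56.0% in T24-NC. These shares are not corrected for length, and H1F0 has 2344 exonic bases against 642 in HIST1H1C. In replicate 2 alone the log2 fold change was 0.37. The call was lost in 5 of the 6 fits that left out 1 library.

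**Figure D4:**
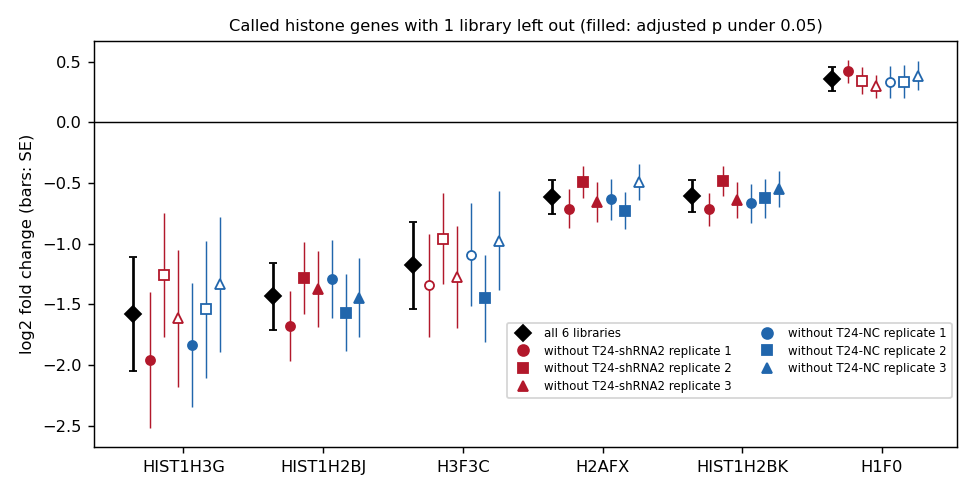
Log2 fold change of T24-shRNA2 over T24-NC for the 6 called histone genes with all 6 libraries (black) and with each library left out in turn, T24-shRNA2 libraries in red and T24-NC libraries in blue. Bars are standard errors and filled points have an adjusted p under 0.05. HIST1H2BJ and HIST1H2BK are filled throughout, H2AFX is open once, and HIST1H3G, H3F3C and H1F0 are mostly open.

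The called genes differed in how far they rested on single libraries. HIST1H2BJ and HIST1H2BK were called in all 6 fits that left out 1 library, and H2AFX in 5. HIST1H3G was called in 2 of the 6, being lost without T24-shRNA2 replicate 2 or 3 or T24-NC replicate 2 or 3, with adjusted p up to 0.164. H3F3C was called in 1, without T24-NC replicate 2, and H1F0 in 1, without T24-shRNA2 replicate 1, with adjusted p up to 0.168 and 0.144. No sign changed in these fits of the 6 genes.

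Among the H2A variants that were not called, H2AFZ and H2AFV encode the H2A.Z proteins found at promoters. H2AFZ was the most abundant histone gene per kilobase, at 302 CPM per kb in T24-shRNA2 and 340 CPM per kb in T24-NC. It had 697, 578 and 813 CPM in T24-shRNA2 against 751, 741 and 859 CPM in T24-NC, and the groups overlapped (log2 fold change -0.17 ± 0.13, edgeR adjusted p = 0.388). In replicate 2 alone, its lowest T24-shRNA2 library, it was -0.45. H2AFV was at 162 ± 12.6 CPM in T24-shRNA2 and 157 ± 6.55 CPM in T24-NC. H2AFJ, whose H2A.J protein is known to gather in senescent cells, was at 64.1 ± 5.10 CPM in T24-shRNA2 and 72.2 ± 9.11 CPM in T24-NC.

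The macroH2A genes, whose proteins carry a large extra domain and sit on silent chromatin, lay apart in opposite directions without passing the test. H2AFY had 289, 265 and 295 CPM in T24-shRNA2 against 307, 304 and 346 CPM in T24-NC, so T24-shRNA2 was below throughout (-0.17 ± 0.10, edgeR adjusted p = 0.250). H2AFY2 had 30.1, 30.9 and 35.9 CPM in T24-shRNA2 against 23.2, 26.7 and 27.4 CPM in T24-NC, so T24-shRNA2 was above throughout (0.33 ± 0.12, edgeR adjusted p = 0.0846). With length and GC corrected, H2AFY2 was at 0.51 and passed (adjusted p = 0.0053). H2AFY2 overlaps exons of AIFM2, and H2AFY those of C5orf66, on the opposite strand, and the strandedness of the counts is not given in the sources used here.

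H3F3A and H3F3B encode the same protein, H3.3, which replaces H3 outside S phase. H3F3B had 524, 457 and 589 CPM in T24-shRNA2 against 620, 606 and 667 CPM in T24-NC, with no overlap (-0.27 ± 0.12, edgeR adjusted p = 0.126). In replicate 2 alone, the lowest library, it was -0.47. H3F3A had 32.7, 38.9 and 48.9 CPM in T24-shRNA2 and 32.7, 34.9 and 38.1 CPM in T24-NC (0.19 ± 0.14, edgeR adjusted p = 0.384). Its pseudogene H3F3AP4 held more reads than the gene itself, 1848, 1948 and 2226 counts in T24-shRNA2 and 1629, 1732 and 1772 in T24-NC, so the level of H3F3A is understated if those reads came from it. Pooled with H3F3AP4 and H3F3AP6, a step added after the data were seen, the log2 fold change was 0.16 ± 0.12 (edgeR adjusted p = 0.358). H1FX, a linker histone variant, was at 83.5 ± 14.7 CPM in T24-shRNA2 and 84.3 ± 10.7 CPM in T24-NC, and reads of its overlapping antisense gene H1FX-AS1 may be among its own.

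The variant families moved unequally in their sums. H1 variants summed to 257, 269 and 309 CPM in T24-shRNA2 against 227, 228 and 255 CPM in T24-NC, above in every library. H1F0 carried this separation, since H1FX overlapped between the groups and H1FNT and H1FOO were at 0. H3 variants summed to 558, 496 and 639 CPM in T24-shRNA2 against 655, 642 and 707 CPM in T24-NC, below in every library. Most of this sum was H3F3B, and H3F3A overlapped between the groups. H2A variants summed to 1355, 1172 and 1499 CPM in T24-shRNA2 and 1463, 1424 and 1667 CPM in T24-NC, with overlap. These sums are descriptions and were not tested.

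Genes listed for acting on histone mRNA or histone proteins were set beside the members. Of 32 tested genes on a list drawn up for processing and decay of replication-dependent mRNA, 2 were higher and 1 was lower. The median log2 fold change was -0.03, and the called share was smaller than the 17.3% of all tested genes. Whether each listed gene, MIIP and PARN among them, acts on histone mRNA was not tested. The RNA decay enzymes PARN (1.72 ± 0.48, edgeR adjusted p = 0.0291) and XRN1 (0.51 ± 0.16, adjusted p = 0.0454) were higher, and MIIP was lower (-0.59 ± 0.14, adjusted p = 0.0172). PARN varied widely, at 4.23, 8.72 and 1.71 CPM in T24-shRNA2 against 1.99, 1.14 and 1.33 CPM in T24-NC, with overlap. Without T24-shRNA2 replicate 2, PARN was at 1.01 and XRN1 at 0.33, and neither was called. SLBP, which binds the stem-loop, was at 115 ± 18.6 CPM in T24-shRNA2 and 123 ± 7.42 CPM in T24-NC, and NPAT, the coactivator of replication-dependent genes, was at 33.8 ± 3.12 CPM in T24-shRNA2 and 29.8 ± 3.70 CPM in T24-NC. SLBP and NPAT were named after their values were seen and did not pass the test.

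Of 23 tested chaperones of replication-coupled deposition, 0 were higher and 2 were lower, with a median of -0.07, so the lower share was near the 7.58% of all tested genes. These were DNAJC9, a chaperone of H3 and H4 (144 ± 17.5 CPM in T24-shRNA2 and 195 ± 6.38 CPM in T24-NC, log2 fold change -0.44), and NAP1L4, a chaperone of H2A and H2B (18.5 ± 1.54 CPM in T24-shRNA2 and 25.0 ± 2.80 CPM in T24-NC, -0.43), with edgeR adjusted p of 0.0187 and 0.0377. Of 30 tested chaperones and loaders of variants, 1 was lower, the acetyltransferase KAT5 (-0.36 ± 0.11, edgeR adjusted p = 0.0435), and 0 were higher, with a median of -0.05.

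Of 45 tested S phase genes, 0 were higher and 7 were lower, with a median of -0.16, beside 7.58% of all genes lower. The largest fold changes were those of the licensing factor CDT1 (49.7 ± 6.48 CPM in T24-shRNA2 and 71.4 ± 7.29 CPM in T24-NC, log2 -0.52), the phosphatase CDC25A (-0.43), thymidine kinase TK1 (-0.41) and the helicase subunit MCM7 (-0.40), with edgeR adjusted p of 0.0158 to 0.0428. These S phase genes were lower in T24-shRNA2 together with the replication-dependent sum, as were the urothelial KRT8 and KRT18, while the urothelial FOXA1 and UPK1A were higher, and the part of any of them in that sum was not tested. Of the 6 fits that left out 1 library, MIIP was called in 5, CDT1 in 4, DNAJC9 in 3, PARN, CDC25A, TK1 and MCM7 in 2, and XRN1, NAP1L4 and KAT5 in 1. With length and GC corrected, XRN1 was at 0.27, KAT5 at -0.21 and TK1 at -0.16, and none of these 3 was called.

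Small noncoding RNAs without a poly(A) tail were set beside the members. Their counts can also be low because many are short or have several gene copies. They therefore do not show how far stem-loop mRNA entered the libraries. Of 21 listed small noncoding RNAs of this kind, 15 had at most 3 counts in any library, 11 of them at 0 throughout, and 3 were tested with 0 called, at edgeR adjusted p of 0.551 to 0.992. RN7SK, which restrains transcription elongation, was at 7.82 ± 0.20 CPM in T24-shRNA2 and 7.77 ± 0.76 CPM in T24-NC, and RPPH1, the RNA of RNase P, was at 2.74 ± 0.58 CPM in T24-shRNA2 and 3.18 ± 0.47 CPM in T24-NC. The labels do not say whether RNA was selected by poly(A) or depleted of ribosomal RNA, so the level of stem-loop mRNA against variant mRNA within a library may reflect the library type as well as the cells.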

How the data were processed

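RNA sequencing covered 3 T24-shRNA2 and 3 T24-NC libraries, grouped by their titles. The authors deposited 1 table of counts, whole numbers for each gene symbol with no normalization. HISAT2 2.0.4 and GRCh38 were used, per the submitters' processing notes. No tool for counting, annotation, strand setting or read filter is given in the sources used here. Genes passing filterByExpr were fitted with edgeR 4.0.16 on TMM-scaled libraries (glmQLFit, robust, then glmQLFTest; limma 3.58.1, R 4.3.3), T24-shRNA2 over T24-NC. P-values were adjusted by Benjamini-Hochberg over all 13896 genes, with calls at under 0.05. Standard errors are the absolute log2 fold change over the root of the F statistic. No set test was run. The procedure was tested on simulated data.

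The histone members and all gene lists were chosen with earlier results of these data known. Named are MTHFD2, every tested variant member, called and the 10 most abundant replication-dependent members, up to 4 called genes (or 2 abundant ones) per other list, and others as stated. Libraries within a group all differed by more than sampling noise, with a chi-square over its degrees of freedom of 2.56 to 31.6. This excess can be technical and does not show that they were separate cultures. Each library was counted as 1 sample.

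Coordinates, exon overlaps, stem-loops and shared 50-base windows came from GENCODE 29 on GRCh38, matched by symbol for all 91 members. Promoter windows came from RefSeq GRCh38.p14, matched for 75 of the 91. Alternatives were RLE size factors, DESeq2 1.42.0, a looser and a stricter low-count filter, the replicate block, each library left out, T24-shRNA2 replicate 2 alone, a threshold of 0.01, and offsets for length and GC content (known for 90.3% of tested genes).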

Additional observations from a re-analysis of the deposited data

How the results depend on the processing

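With a threshold of 0.01 the replication-dependent genes held 1 lower call in place of 3, and the variant genes 0 higher and 0 lower calls in place of 1 and 2. Leaving out each library gave 0 to 1 variant genes higher and 0 to 2 lower. T24-shRNA2 replicate 2 alone, an arm of 1 library assumed to vary as T24-NC does and so no replicated test, gave 4 variant genes lower, a replication-dependent median of -0.21 and log2 ratios of summed CPM of -0.50 for replication-dependent and -0.32 for variant genes. The replication-dependent median ran between -0.39 and 0.0034 with a library left out and the low-count filter rerun. Length and GC offsets gave 2 variant genes higher and a replication-dependent median of 0.033. Without HIST1H2BK the replication-dependent log2 ratio of sums was -0.15. The labels do not say that the replicate numbers pair the samples. Deviations of same-numbered libraries correlated at -0.02, 0.30 and 0.35. T24-shRNA2 replicates 2 and 3 correlated best with their own number, and replicate 1 with T24-NC replicate 3, at 0.05. Whether the numbers mark a shared batch was not tested. The replicate block gave 2 variant genes higher, and 5062 calls over all genes in place of 2402. The replicate block with length and GC offsets gave 3 variant genes higher, 5 lower, a replication-dependent median of 0.0084 and 5477 calls over all genes, and H1FX changed sign there, to 0.26 (adjusted p = 0.0032) against -0.01 without these terms. Calls over all genes fell to 1469 without T24-shRNA2 replicate 2, 1003 without T24-NC replicate 1 and 986 without T24-NC replicate 3, and were 4432 with replicate 2 alone. The causes were not tested. RLE size factors changed no count of histone calls. Members annotated as pseudogenes, 5 in number, were all untested. Precision is limited by counts: 60 of 75 replication-dependent genes had at most 20 counts in any library.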
